A study of Danio rerio with 9 samples.

Results

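This section describes how the transcriptome of Müller glia (MG) of wild-type (Wt) zebrafish changed after a retinal injury, across every gene that could be tested rather than for a chosen pathway. The libraries were chosen by their labels: the 3 Wt uninjured and the 3 Wt 2 days post-injury (dpi) libraries, 6 of the 9 libraries of the series. The study used RNAseq of MG to ask how the Myc factors Mycb and Mych contribute to the injury response. The other 3 libraries of this series, from *mych*-/- fish at 2 dpi, entered only the estimate of the spread between replicates. All fish carried the *gfap:GFP* transgene, retinas were injured by needle poke, and GFP+ cells were sorted after papain dissociation from pools of retinas. The *gfap* promoter labels resting MG, activated MG and the progenitors that arise from them, so the 2 dpi sort holds a mixture of these states. Nothing in the labels says that the 3 libraries of a group came from separate pools of fish, and p-values therefore measure only the spread between these libraries.

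MG span the whole thickness of the retina, take up glutamate and potassium released by neurons, recycle retinoids for cones and hold the tissue together mechanically. In zebrafish, MG answer the death of neurons by becoming reactive, reverting to a progenitor-like state and dividing to replace the lost neurons. Ribosome and DNA replication genes and the Myc genes *mycb* and *mych* are known to rise in this step. The text below turns to what else changed.

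The 6 libraries held between 46835977 and 76919389 counts. Levels are given as CPM, the counts of a gene relative to the scaled total of its library, and are comparable for 1 gene between libraries but not between genes, because they are not divided by gene length. Of 20484 genes tested, 42.1% were called, 22.3% higher and 19.8% lower at 2 dpi, where a call needed an adjusted p of at most 0.05 in edgeR's quasi-likelihood test and a log2 fold change beyond 0.5. The libraries of the groups did not overlap for 56.6% of genes. With so many calls, counts within a gene list are read against these background shares. The median log2 fold change of all genes was -0.02, with quartiles of -1.09 and 1.07.

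The sorted cells carried many transcripts of other retinal cells. The Müller glia list has 39 genes, among them genes of glutamate, water, ion and retinoid handling and others such as *GJA1* and *NDRG2*. Its summed level was 8757, 11810 and 15660 CPM in the uninjured libraries and 7821, 10240 and 8088 CPM at 2 dpi. The 208 genes of the neuron and photoreceptor lists summed to 121200, 144600 and 104700 CPM in the uninjured libraries and 49650, 26260 and 46600 CPM at 2 dpi. The ratio of this sum to that of the Müller glia list lay between 6.68 and 13.8 before injury and between 2.56 and 6.35 at 2 dpi, and every 2 dpi library was below every uninjured one. In bulk samples such as these, fewer neurons among the sorted cells and less RNA per neuron cannot be told apart.

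**Figure D1:**
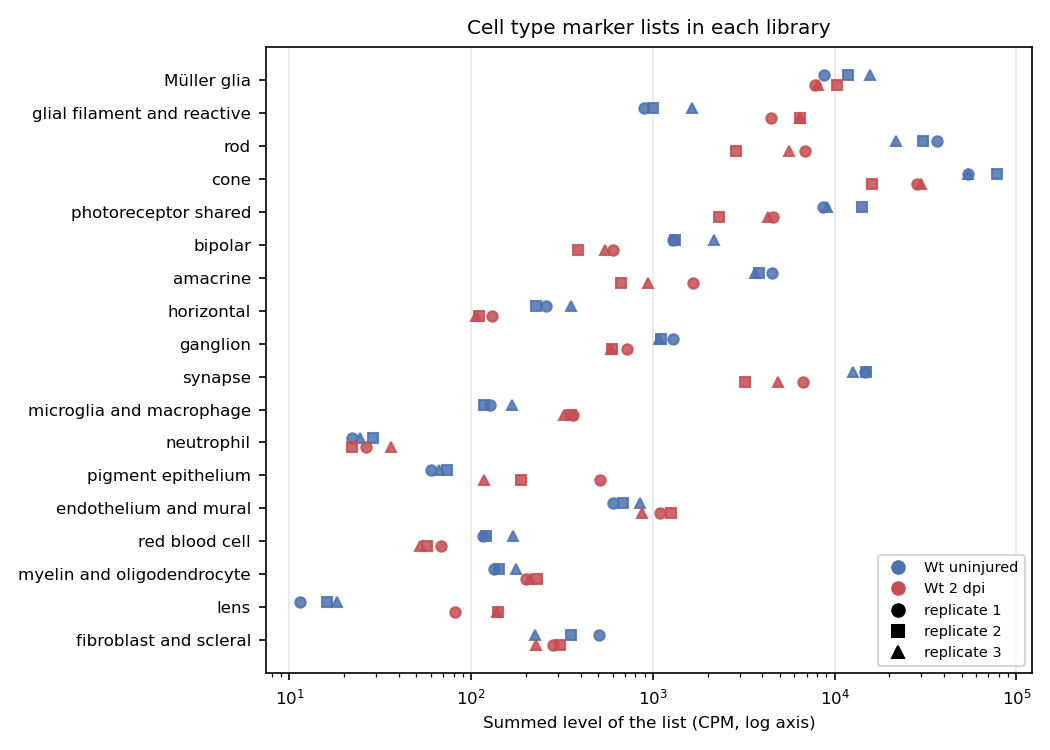
Summed level (CPM, log axis) of 18 cell type marker lists in each Wt library, with uninjured libraries in blue and 2 dpi libraries in red and the marker shape giving the replicate. The rod list sits between 21660 and 36620 CPM uninjured and between 2850 and 6857 CPM at 2 dpi, while the Müller glia list overlaps between the groups.

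Rod genes fell furthest. Of 31 rod genes tested, 26 were called lower and 0 higher (background 19.8% lower), with a median log2 fold change of -3.03. *GNAT1*, the rod transducin alpha subunit, stood at 4226, 2429 and 1915 CPM in the uninjured libraries and at 392.8, 115.3 and 215.1 CPM at 2 dpi. The groups did not overlap and the first library of each was the highest (log2 fold change -3.57 ± 0.50 (SE), adjusted p = 0.00019). Among the 10 called genes with the largest falls at a mean of at least 20 CPM were the photoreceptor genes *sagb*, *GUCA1B*, *GRK1*, *rom1a*, *GNAT1*, *PDE6G* and *gucy2f*.

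Cone and inner retinal genes fell by a smaller amount in the median. For cones, 22 of 26 genes were lower, with a median of -1.71, and *GNAT2*, the cone transducin alpha subunit, went from 6403, 9326 and 6326 CPM to 3077, 1622 and 3141 CPM. For the synapse list, 44 of 52 genes were lower and 2 higher, with a median of -1.79. Bipolar (19 of 20 lower, median -1.95) and amacrine genes (15 of 18 lower, median -1.85) had similar medians. The interquartile range was 0.67 log2 units for the synapse list and 0.41 for the amacrine list, against 2.16 for all genes tested. The ganglion list was less uniform, with 7 genes called lower and 2 higher. In it *alcamb* rose by 1.95, and *SNCG* rose by 0.55 at 1 entry (ENSDARG00000034423) and fell by 1.88 at another (ENSDARG00000109715). *GAD2*, the GABA-synthesising enzyme of amacrine cells, fell by 1.97 (SE 0.39), and *SNAP25* (ENSDARG00000020609), a component of synaptic vesicle fusion, by 1.77 (SE 0.40).

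A second measure, which does not use the uninjured libraries, was taken to set these transcripts apart from glial ones. The 2 dpi libraries differed among themselves in their neuronal level: the synapse list summed to 6729 CPM in the first and 3204 CPM in the second, a ratio of 2.1, whereas the Müller glia list gave a ratio of 0.764. For every gene with a mean of at least 1 CPM at 2 dpi, the log2 ratio of the first over the second 2 dpi library was therefore taken, hereafter the library ratio, and this pair was chosen after the summed levels were seen. Its median was 0.02 over 16314 genes, 1.1 over 188 genes of the neuron and photoreceptor lists, -0.26 over the Müller glia list and -0.34 over the glial filament and reactive list. Taken between the first and the third library, which were closer in neuronal level, the median of the neuron and photoreceptor lists was 0.46. It ran from 0.78 for the rod list and 0.73 for the synapse list to 0.08 for the shared photoreceptor list and -0.22 for the cone list. These lists thus did not all vary together across the 2 dpi libraries. Because the pair was picked by the summed levels, a high median for the neuron lists follows from that choice and is no separate evidence. The library ratio sets 1 library against 1 other, and both also enter the fold changes, so it describes single genes without a test.

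Of 3833 genes called lower at this level, 38.7% had a library ratio of at least 0.84, the lower quartile of the synapse list, against 15.5% of all genes, and 11.8% had a ratio below 0. Of 4491 genes called higher, 1.47% reached that value and 82.3% were below 0. Over all genes the share below 0 was 48.6%. Compared with the first 2 dpi library, the second was thus at once lower in neuronal genes and higher in most genes called higher. A lower neuronal level and a stronger response than in the first library cannot be told apart by this ratio. The third library does not enter it. Pigment epithelium markers also had a high median ratio (2.3).

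**Figure D2:**
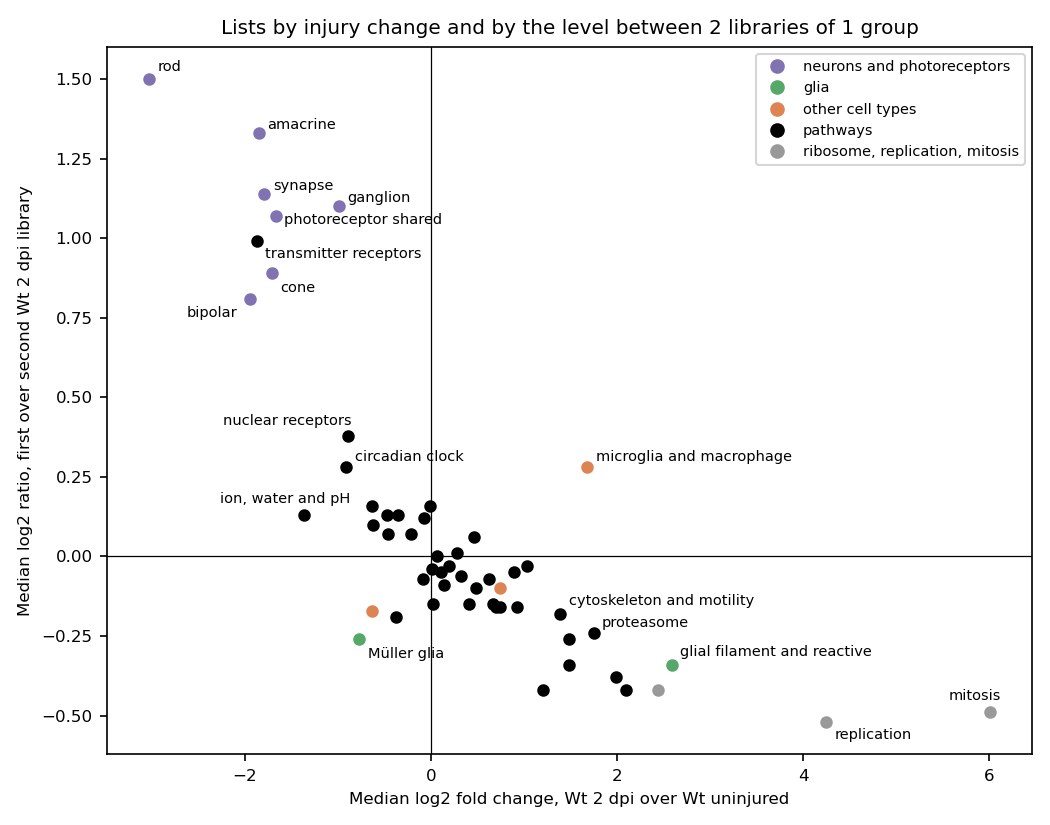
Median log2 fold change with injury (horizontal) against the median library ratio, first over second 2 dpi library (vertical), for lists with at least 10 genes, coloured by class. Neuron and photoreceptor lists lie at upper left, with library ratios of at least 0.81, and the circadian clock (0.28) and nuclear receptor (0.38) lists lie between them and the glial lists.

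Of 39 genes in the Müller glia list, 4 were called higher, 11 lower and 24 neither, with a median of -0.77. The background was 22.3% higher and 19.8% lower. The cellular retinaldehyde-binding protein gene *rlbp1a* stood at 864, 909.3 and 1362 CPM uninjured and 708.4, 878.1 and 985 CPM at 2 dpi, with overlapping groups (log2 fold change -0.29 ± 0.38, adjusted p = 0.59). The carbonic anhydrase gene *cahz* was likewise not called, at -0.05 ± 0.39. Glutamine synthetase, which converts glutamate taken up from synapses, has 2 entries, of which one (ENSDARG00000099776) averaged 4788 and then 2732 CPM without being called, and the other (ENSDARG00000100003) rose from 257 to 792 CPM (log2 fold change 1.62 ± 0.31).

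For the 10 lower genes of the Müller glia list with at least 1 CPM at 2 dpi, the median library ratio was 0.67. It was below 0 for 2 of them and at least 0.84 for 4. *GJA1* and *SLC4A4* were below 0. The gap junction gene *GJA1*, which couples glia, went from 191.6, 212.4 and 345.6 CPM to 87.43, 104.9 and 72.3 CPM, with no overlap (log2 fold change -1.5 ± 0.35, adjusted p = 0.0048) and a library ratio of -0.26. The bicarbonate transporter *SLC4A4* (ENSDARG00000013730) fell by 1.51 with a library ratio of -0.08. By contrast the glutamate transporter *SLC1A2* (ENSDARG00000052138) fell by 1.89 with a library ratio of 1.27, while a second *SLC1A2* entry (ENSDARG00000102453), at 2028 and then 1566 CPM, was not called. The falls of *NDRG2* (-1.71) and *ca2* (-1.82) came with library ratios of 0.87 and 0.70.

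The reactive genes rose. Of 24 genes in the glial filament and reactive list, 14 were called higher and 0 lower, with a median log2 fold change of 2.59. *GFAP*, the glial filament protein, was at 119.4, 185.4 and 258.6 CPM uninjured and 577.6, 767.3 and 673.4 CPM at 2 dpi (log2 fold change 1.84 ± 0.33, adjusted p = 0.00095). The fatty acid-binding protein gene *FABP7* (ENSDARG00000007697), a marker of radial glia, went from 116.2, 105.8 and 173.9 CPM to 1431, 2522 and 2530 CPM. Every 2 dpi library was above every uninjured library for both genes. The simple epithelial keratins *krt8* (log2 fold change 3.02) and *krt18a.1* (6.31), the progenitor filament gene *nes* (6.14) and the galectin *lgals2a* (6.89) rose with them. *apoeb*, encoding the lipid carrier apolipoprotein E, gained more CPM than any other gene outside the ribosome, replication, Myc and mitosis lists, from 3511, 1979 and 4164 to 7934, 12630 and 15810 CPM.

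Cytokines of the interleukin-6 family act through receptors that share the gp130 subunit and activate Stat3. In this list 22 of 43 genes (51.2%) were higher and 3 lower, with a median of 1.03. Among the ligands, *clcf1* was at 0 CPM in all uninjured libraries and at 120.7, 129.1 and 118.5 CPM at 2 dpi, at least 2109-fold higher against a floor of 3 counts per library. Its partner *crlf1a*, needed for secretion of Clcf1, rose from 4.08, 3.57 and 5.38 CPM to 827.8, 886 and 979.6 CPM (log2 fold change 7.69 ± 0.27, adjusted p = 3.3e-08). The leptin gene *lepb* (8.71) and *il11a* (4.16) were also higher.

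The receptor side rose as well. The leptin receptor gene *lepr* was near absent in the uninjured libraries, at 1.14, 0.21 and 2.41 CPM, and reached 170.4, 223.7 and 214.3 CPM at 2 dpi. The LIF receptor gene *lifrb* rose by 8.68 on the log2 scale, and *il6st*, which encodes gp130 itself, by 1.74. *STAT3* went from 28.98, 24.07 and 30.48 CPM to 146.5, 116.5 and 81.54 CPM. Both *SOCS3* entries, feedback inhibitors of the pathway, rose, by 2.43 (ENSDARG00000025428) and 3.18 (ENSDARG00000026611), while *stat5a* fell by 1.84. Ligands, receptors, the signal transducer and its inhibitor were thus all among the higher genes.

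Inflammatory genes followed the same direction. In the inflammation and NF-kB list, 24 of 51 genes (47.1%) were higher and 1 was lower, with a median of 1.48. The chemokine *cxcl18b* rose from 13.47, 2.55 and 6.89 CPM to 289.7, 524.1 and 877.2 CPM (log2 fold change 6.20 ± 0.65). The NF-kB inhibitor *nfkbiaa* (3.79), the NF-kB subunit *REL* (2.82), the acute-phase transcription factor *CEBPB* (2.54) and, at low level, interleukin-1 beta (*il1b*, 2.61, 6.79 CPM at 2 dpi, a call lost without the third 2 dpi library) were higher as well.

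Complement genes included one of the largest gains. In the complement and acute phase list 13 of 37 genes (35.1%) were higher and 2 lower. *c7b*, a component of the membrane attack complex, went from 11.63, 4.43 and 12.88 CPM to 3587, 5889 and 4364 CPM (log2 fold change 8.90 ± 0.53, adjusted p = 5.1e-07), and its paralog *c7a* rose by 5.19. *c4b* (7.75) and *c3a.1* (6.75), of the upstream cascade, were higher. The kininogen gene *kng1* was at 0 CPM in every uninjured library and at 44.61, 70.68 and 74.43 CPM at 2 dpi, at least 1086-fold higher. *cd59b*, whose product blocks the membrane attack complex, fell by 1.70 with a library ratio of 1.76.

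The interferon and antigen presentation list had 22 of 43 genes higher (51.2%) and 1 lower, with a median of 2.1. The MHC class I gene *mhc1uba* was at 0 CPM in the uninjured libraries and at 51.17, 37.24 and 26.07 CPM at 2 dpi. *b2m*, its light chain, rose from 11.22, 11.39 and 13.34 CPM to 45.75, 63.75 and 73.38 CPM (log2 fold change 2.35 ± 0.23). *irf9* (2.40), *gbp1* (4.91), *isg15* (2.91, a call lost when any of 4 libraries was left out) and the proteasome activator *PSME1* (3.39) were higher. *cd74a*, the class II invariant chain of antigen-presenting cells, fell by 2.43.

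Microglia and macrophages make many of the same transcripts, and their markers moved too. Of 29 microglia and macrophage genes tested, 13 were higher and 0 lower, and the list summed to 118.3 to 168 CPM uninjured and 325 to 362.4 CPM at 2 dpi. Some markers stayed low: *c1qa* was at 0 CPM in each uninjured library and averaged 1.72 CPM at 2 dpi. *ptprc* averaged 4.69 and 4.99 CPM without being called, and *tyrobp* was at 0 CPM in all 6 libraries. Others were called higher, among them *lgals9l1* (mean 1.75 CPM uninjured and 9.74 CPM at 2 dpi) and *LCP1* (3.54 and 15.69 CPM). *cyba* (2.55 and 10.36 CPM) and *itgb2* (2.83 and 9.99 CPM) were higher as well. Of the summed CPM, *AIF1L* gave 85.82 before injury and 199.8 at 2 dpi. In the neutrophil list 2 of 7 genes were higher and 1 lower, and in the lymphocyte list neither of the 2 tested was called. The part of these cells in the complement, cytokine and interferon changes was not tested.

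**Figure D3:**
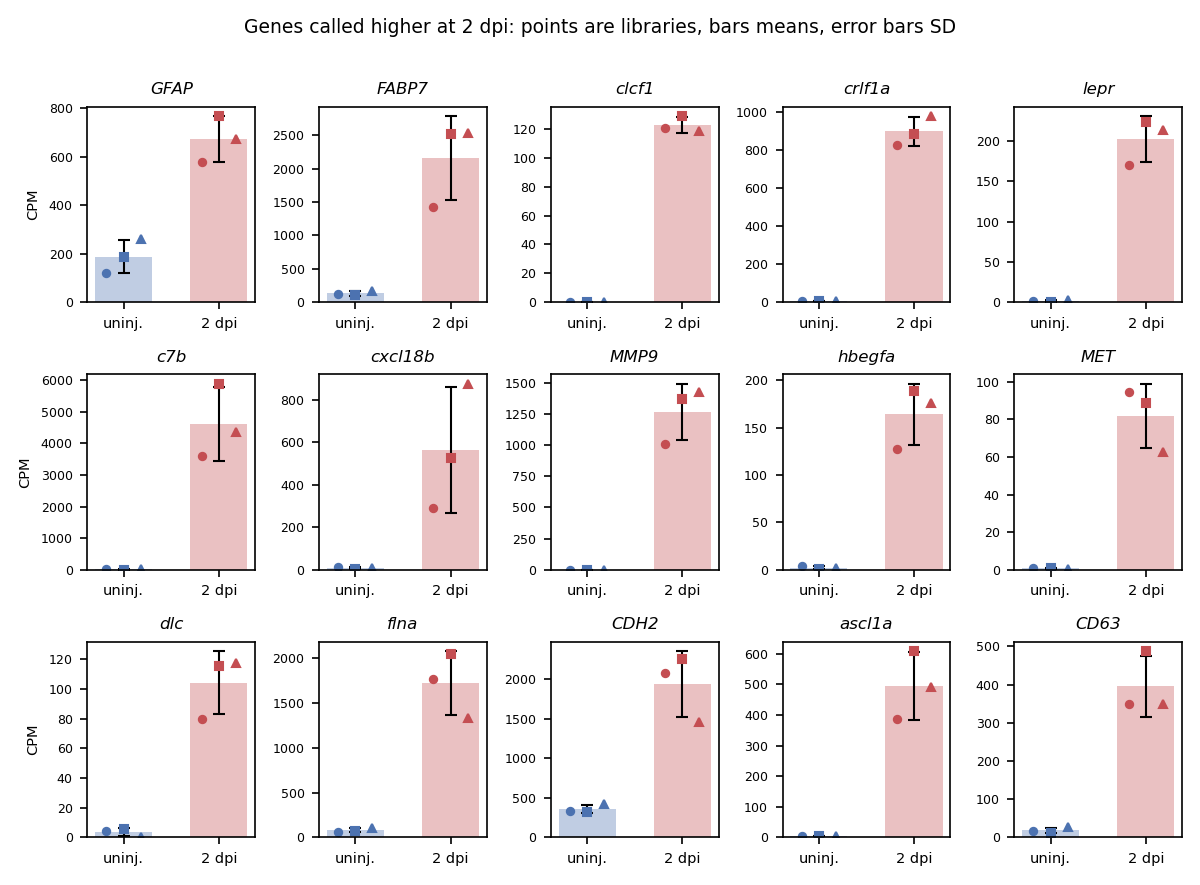
Level (CPM, linear axes from 0) of 15 genes called higher at 2 dpi. Points are the 3 libraries of a group, bars the mean and error bars the SD, and in each panel the 2 dpi points lie above all uninjured points, as for *MMP9* at 0.214 to 1.31 CPM uninjured and 1010 to 1423 CPM at 2 dpi.

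Growth factor genes as a group did not stand out, with 12 of 94 higher and 17 lower (background 22.3% and 19.8%), yet single members changed greatly. *hbegfa*, a ligand of the EGF receptor, rose from 3.95, 1.07 and 1.36 CPM to 127, 188.9 and 175.9 CPM (log2 fold change 6.26 ± 0.49). *MET*, the hepatocyte growth factor receptor, rose from 0.85, 0.71 and 0.61 CPM to 94.84, 88.73 and 62.75 CPM (6.83 ± 0.26). *IGFBP3* (3.12) and the BDNF receptor gene *NTRK2* (2.28) were higher. *IGF1* fell by 3.06 with a library ratio of 0.20, while *NRG1* (-2.35) and *egf* (-2.27) had ratios of 1.95 and 1.16.

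Notch signalling, which keeps MG quiescent and later restrains progenitors, had 25 of 46 genes higher (54.3%) and 7 lower. The ligand *dlc* rose from 4.13, 5.73 and 0.48 CPM to 79.5, 115 and 117.6 CPM (log2 fold change 4.93 ± 0.68), and both *NOTCH1* entries rose, by 2.31 and 2.67. The target genes *her4.4* (4.60), *her4.5* (4.88) and *her15.1* (3.24) were higher, though the *her4* and *her15* genes are close copies among which reads may have been shared. The direction was not uniform. The ligand *dll4* fell from 21.37, 19.48 and 19.71 CPM to 5.36, 7.30 and 5.10 CPM (-1.77 ± 0.28), with a library ratio of -0.44, and the target *HEY1* fell by 1.39 (ratio 0.17).

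The Hippo list covers the growth cofactor Yap, the kinases that hold it back, its partners and its target genes. In this list 13 of 25 genes (52.0%) were higher and 2 lower. Among the kinases *STK3* rose by 0.69, while *LATS1* (-0.54) and *LATS2* (-0.01) were not called. *YAP1* rose by 1.52 (SE 0.23), from 59.26, 65.16 and 93.81 CPM to 191.2, 240.4 and 194 CPM, its DNA-binding partner *tead1a* by 3.56 and the target *CCN2* by 2.44. The 2 lower genes were the *TEAD1* entry (-1.2, ENSDARG00000059483) and *AMOTL2* (-0.91), and *CCN1*, at 0.065 (SE 0.357), was not called. For Wnt and Hedgehog, 21 of 78 (26.9%) were higher and 8 (10.3%) lower, with the Wnt inhibitor *dkk1a* (8.99) and the Hedgehog effector *GLI2* (2.48, ENSDARG00000025641) among the rises and *APC* (-1.18, a call lost when any of 3 libraries was left out) among the falls. In the TGF-beta, BMP and Id list 11 of 68 were higher and 11 lower (16.2% each). *TGFB2* (2.77), *SMAD5* (1.97) and the repressor *TGIF1* (1.89) rose, *SMAD3* (-1.31, ENSDARG00000036096) fell, and *TGFB3* (-0.86, adjusted p = 0.049) sat at the threshold.

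Progenitor and reprogramming factors rose in 27 of 65 cases (41.5%) and fell in 16 (24.6%). *ascl1a*, the proneural factor of MG reprogramming, went from 3.73, 4.5 and 5.49 CPM to 386.3, 608.2 and 492 CPM (log2 fold change 6.76 ± 0.38, adjusted p = 3.5e-07). *LIN28A* (7.19, ENSDARG00000016999), which blocks maturation of let-7, *FOXN4* (6.11) and *SOX2* (2.12) were higher. Among the falls, *OTX2* (-1.94), *rx2* (-1.72) and *PAX6* (-1.54, ENSDARG00000103379), which neurons and photoreceptors of the adult retina also express, had library ratios of 0.84, 0.50 and 0.96.

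Immediate early genes as a group did not stand out and went in both directions, with 7 of 49 higher and 12 lower (background 22.3% and 19.8%). *fosl1b* was at 0 CPM uninjured and at 8.55, 10.54 and 21.52 CPM at 2 dpi, and *FOSL1* rose by 1.97. *NR4A1* fell from 169.8, 62.73 and 118.6 CPM to 19.62, 17.43 and 22.46 CPM (log2 fold change -2.56 ± 0.31), with a library ratio of 0.17, and *egr1* fell by 0.82 (ratio -0.03). Among heat shock genes, *hsp70.3* stood at 6526, 6711 and 15900 CPM uninjured and at 2438, 2791 and 4632 CPM at 2 dpi, with the third uninjured library the highest and no overlap.

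**Figure D4:**
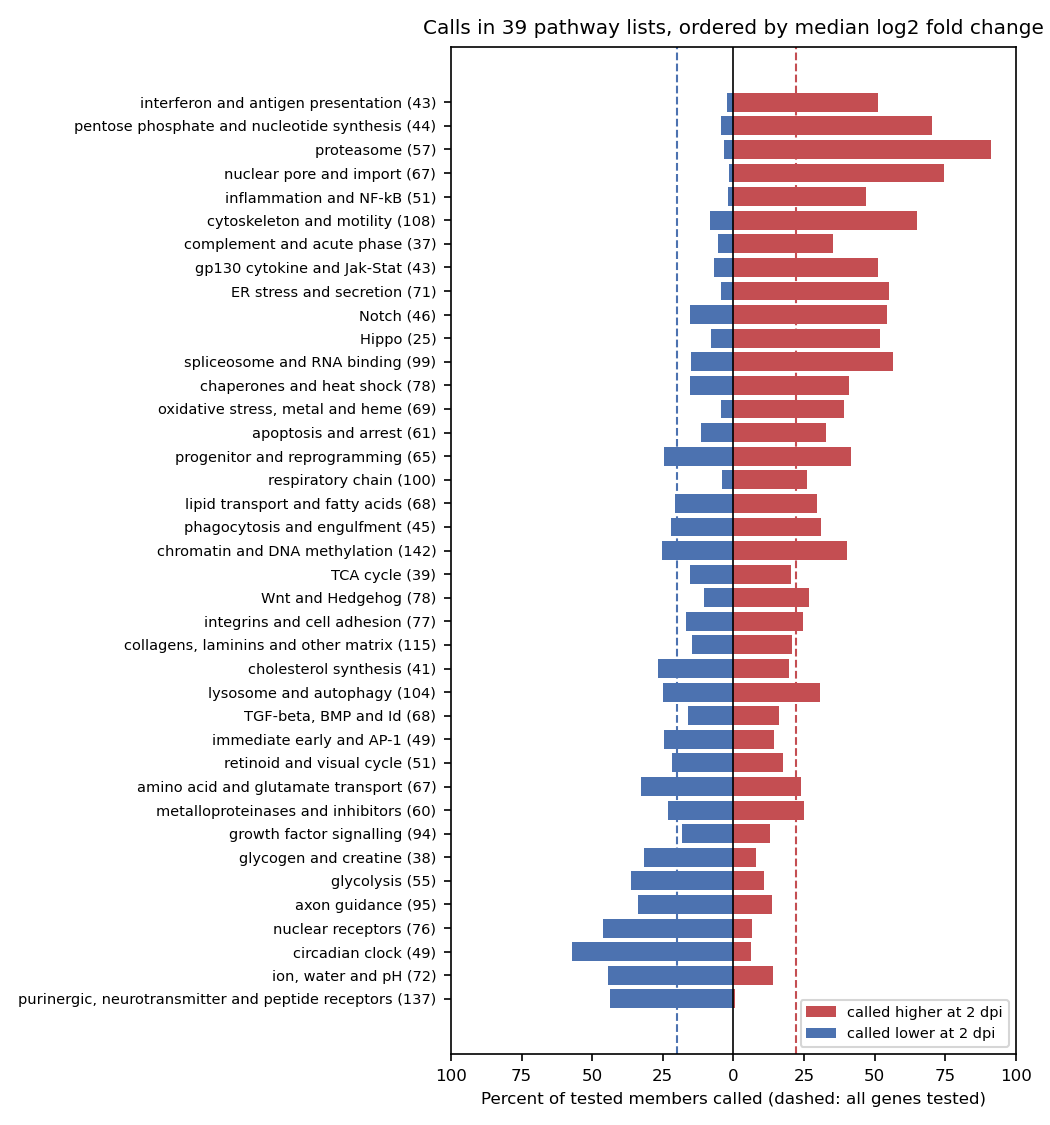
Percent of tested members called higher (red, to the right) and lower (blue, to the left) in 39 pathway lists, ordered by median log2 fold change, with the number of genes tested in brackets and the share over all genes as dashed lines (22.3% and 19.8%). The proteasome list reaches 91.2% higher, and the circadian clock list 57.1% lower.

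Of 57 proteasome genes, 52 (91.2%) were higher and 2 lower, with a median of 1.75 and an interquartile range of 0.56 log2 units. The core particle subunit *PSMA5* went from 27.28, 21.22 and 20.33 CPM to 107.3, 129.4 and 149 CPM (log2 fold change 2.49 ± 0.22). The 2 lower genes were both entries for the activator *PSME4* (-0.97 and -1.05), of which the second (ENSDARG00000087911) was not called without the second uninjured library, leaving 1 lower gene, whereas the activators *PSME1* (3.39) and *PSME3* (2.56) rose.

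Of 67 nuclear pore and import genes, 50 (74.6%) were higher and 1 lower, including the importin *KPNA2* (0.61, 0.48 and 1.18 CPM, then 113.1, 179.8 and 166.4 CPM), the pore protein *NUP210* (4.1) and the small GTPase *RAN* (2.16). In the spliceosome list 56 of 99 (56.6%) were higher and 15 lower. The rises included the core snRNP proteins *SNRPG* (4.3) and *SNRPD2* (2.81). Falls included the neuronal splicing regulators *CELF4* (-1.88, a call lost when any of 3 libraries was left out) and *RBFOX1* (-1.63), which had library ratios of 1.86 and 1.5.

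The mitochondrial chaperonin *HSPD1* (2.67), the cytosolic chaperonin subunit *CCT5* (2.1) and *HSP90AB1* (1.72) rose, as did the constitutive Hsp70 gene *HSPA8* (1.37, ENSDARG00000068992), whereas *hsp70.3* (-1.56) and *hsp70l* (-1.66) of the same family fell, and over the chaperone list 32 of 78 were higher and 12 lower. The ER list had 39 of 71 genes higher (54.9%) and 3 lower. The ER chaperone and folding genes *HYOU1* (2.32), *MANF* (3.04) and *CRELD2* (3.52) were higher. The death-associated factor *DDIT3*, at 73.79, 57.45 and 72.26 CPM and then 42.22, 42.91 and 57.52 CPM, was called lower at the edge of the threshold (-0.51, adjusted p = 0.049), and *HSPA5*, at 0.65 ± 0.38, was not called.

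Of 142 chromatin genes, 57 were higher (40.1%) and 36 lower (25.4%). The maintenance methylation pair *DNMT1* (21.11 to 200.9 CPM, log2 fold change 3.25 ± 0.20) and *UHRF1* (6.53) and the histone chaperone *CHAF1B* (8.45) rose. The genes for enzymes that oxidise methylcytosine fell: *tet3* from 127.2, 133.1 and 140.4 CPM to 52.82, 48.34 and 48.8 CPM (-1.42 ± 0.18, library ratio 0.13), *TET1* by 1.59 (ratio -0.07) and *TET2* by 1.49 (ratio 0.87). The histone deacetylase *HDAC5* fell by 1.84 (ratio 0.41).

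In the pentose phosphate and nucleotide synthesis list 31 of 44 genes (70.5%) were higher and 2 lower, with the largest rises in *MTHFD1L* (7.63), *TYMS* (7.61) and *RRM2* (7.29, ENSDARG00000020711), which make one-carbon units and deoxynucleotides. The falls were *IMPDH1* (-2.35, ENSDARG00000042336) and the transketolase *TKT* (-1.57), with library ratios of 1.08 and 1.01. In the TCA cycle list 8 of 39 were higher and 6 lower (background 22.3% and 19.8%). The higher count was 5 without the third 2 dpi library and 3 at a log2 fold change above 1. In the respiratory chain list 26 of 100 were higher and 4 lower, with a median of 0.41, and the count of higher genes was 13 without the third 2 dpi library, 15 without the third uninjured one and 6 at a log2 fold change above 1. The mitochondrial gene *MT-CO1*, a subunit of complex IV that the list does not hold, had the largest loss in CPM, from 32070, 47590 and 49740 to 27720, 24780 and 29800. Its groups did not overlap, but it was not called (log2 fold change -0.65 ± 0.29, adjusted p = 0.093), except by DESeq2.

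Glycolysis genes were lower in 20 of 55 cases (36.4%) and higher in 6. The hexokinase *HK2* rose from 0.76, 2.38 and 2.04 CPM to 52.94, 68.32 and 53.75 CPM (log2 fold change 5.08 ± 0.38). The glucose transporter *SLC2A1* (ENSDARG00000001437) fell from 460.4, 520.7 and 646.2 CPM to 269.3, 266 and 228.5 CPM (-1.09 ± 0.30) with a library ratio of 0.02. A second *SLC2A1* entry (ENSDARG00000007412), at 57.07 and then 57.08 CPM, was not called, nor was *LDHA*, at -0.14 ± 0.21. *PFKM* (-2.09, ENSDARG00000060797) had a ratio of 1.01. In the glycogen and creatine list 12 of 38 were lower (31.6%) and 3 higher. Glycogen synthase (*GYS1*, -1.67) fell while the liver-type glycogen phosphorylase *PYGL* rose by 1.54, and the creatine kinases *CKB* (-1.20, ENSDARG00000043257) and *CKMT2* (-2.43, ENSDARG00000039929) fell with library ratios of 0.63 and 1.05, while a second *CKB* entry (ENSDARG00000069752) rose by 1.69.

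Of 41 cholesterol genes, 11 were lower (26.8%) and 8 higher (19.5%), with a median of 0.01. Enzymes of the later steps of sterol synthesis were among the largest falls, and other falls included the transcription factors *srebf2* (-1.30) and *SREBF1* (-0.93) and the exporter *ABCG1* (-1.22). *CYP51A1* went from 34.24, 40.65 and 78.04 CPM to 9.19, 14.52 and 8.62 CPM (log2 fold change -2.24 ± 0.38, adjusted p = 0.0006), *MSMO1* fell by 1.98 and *SQLE* by 2.33 (ENSDARG00000079946). The third uninjured library was highest for each, and *SQLE* was no longer called without it or without the third 2 dpi library. The library ratios of *CYP51A1* (-0.65) and *MSMO1* (-1.1) were below 0. The exporters of cholesterol from lysosome and cell, *NPC1* (2.04) and *ABCA1* (1.52), rose.

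Among fatty acid genes, *FASN* (522, 568.7 and 631.3 CPM, then 319.7, 336.4 and 262 CPM, log2 fold change -0.91 ± 0.18) and *ACACA* (-0.96), which encode enzymes of synthesis, fell with library ratios of -0.07 and 0.02. *HADHA*, of mitochondrial beta-oxidation, rose from 24.01, 33.07 and 35.35 CPM to 144.3, 153.4 and 142.7 CPM (2.25 ± 0.20). *ELOVL4* (-2.06, ENSDARG00000027495), which elongates the very long fatty acids of photoreceptors, fell with a ratio of 0.77. Over the whole lipid list 20 of 68 were higher and 14 lower (background 22.3% and 19.8%).

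The cytoskeleton list had 70 of 108 genes higher (64.8%) and 9 lower, with a median of 1.39. Filamin A (*flna*), an actin cross-linker, went from 64.47, 66.3 and 103.9 CPM to 1771, 2046 and 1336 CPM (log2 fold change 4.46 ± 0.28, adjusted p = 7.4e-07). The tubulins *tubb6* (8.87) and *tuba8l4* (3.94), the membrane linker *MSN* (2.80) and *actb1* (2.7) rose with it, and of the adhesion genes *CDH2*, encoding N-cadherin, rose from 329.1, 324.5 and 416.6 CPM to 2083, 2261 and 1463 CPM (2.44 ± 0.24). The integrins *ITGB6* (5.52) and *ITGA2*, which was at 0 CPM uninjured and 13.59 to 14.99 CPM at 2 dpi, were also higher. The list of integrins and adhesion genes as a whole was near background, with 19 of 77 higher and 13 lower.

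Of 115 collagen, laminin and other matrix genes 24 were higher (20.9%) and 17 lower (14.8%), with a median of 0.02, and the lower count was 11 without the third uninjured library. The proteoglycan *DCN* (4.84) and the collagen-modifying enzyme *PLOD2* (3.95) rose, while *abi3bpb* (-4.09) and *LOXL2* (-2.35) fell, and both falls had the third uninjured library among the highest (*abi3bpb* at 32.21, 28.52 and 74.08 CPM). Among the metalloproteinases *MMP9* went from 0.79, 0.21 and 1.31 CPM to 1010, 1373 and 1423 CPM (10.64 ± 0.58, adjusted p = 3.7e-07). *adam8a* (8.45) and *MMP14* (3.82, ENSDARG00000008388) rose. Over the list 15 of 60 were higher and 14 lower (background 22.3% and 19.8%). Among axon guidance genes, 13 of 95 were higher and 32 lower (33.7%). The receptors *epha2a* (1.22, 1.85 and 4.39 CPM, then 171.8, 190.6 and 166.6 CPM) and *NRP2* (4.25, ENSDARG00000038446) rose, whereas *EFNA1* (-2.40, ENSDARG00000018787) and *SEMA3F* (-2.24, ENSDARG00000055373) fell with library ratios of 1.0 and 0.91.

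Lysosome and autophagy genes were higher in 32 of 104 cases and lower in 26, with the tetraspanin *CD63* (17.9, 11.78 and 26.17 CPM, then 350.4, 487.5 and 348 CPM) among the rises and the proton pump subunit *ATP6V0A1* (-1.79, ENSDARG00000015174, library ratio 1.22) among the falls. The engulfment receptor *AXL* rose by 6.81, from at most 0.351 CPM uninjured to between 13.25 and 30 CPM. Phagocytosis and engulfment genes were higher in 14 of 45 cases and lower in 10 (background 22.3% and 19.8%). In the oxidative stress list 27 of 69 were higher (39.1%) and 3 lower, led by the thioredoxin *txnb* (6.26) and haem oxygenase *HMOX1* (5.89). In the apoptosis and arrest list 20 of 61 were higher and 7 lower, and the lower count was 4 without the first uninjured or the second 2 dpi library. The cell cycle inhibitor *cdkn1a* rose by 3.09 and *CDKN1B* (ENSDARG00000029018) fell by 1.94. A second *CDKN1B* entry (ENSDARG00000054271), at 55.55 and then 50.63 CPM, was not called.

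Of the 39 pathway lists, the circadian clock had the highest share of lower calls. Of 49 genes in the circadian list, 28 (57.1%) were lower and 3 higher, with a median of -0.91. The list holds the negative limb of the clock (*PER* and *CRY* genes) and the factors it drives. *PER2* stood at 293.9, 248.4 and 201.1 CPM uninjured and 97.34, 96.32 and 122.7 CPM at 2 dpi (log2 fold change -1.23 ± 0.19, adjusted p = 0.00036). *CRY1* (ENSDARG00000045768) went from 231.3, 198.3 and 218.7 CPM to 69.69, 68.21 and 75.84 CPM (-1.60 ± 0.16, adjusted p = 1.7e-05).

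*BHLHE40*, a repressor of clock-driven genes, fell from 1322, 1324 and 1385 CPM to 406.3, 329.3 and 432.9 CPM (-1.79 ± 0.19), and *nfil3-6* from 747.6, 467.8 and 662.5 CPM to 149, 148.1 and 256 CPM. The first and second 2 dpi libraries, which differed in neuronal level, were close to each other for *PER2*, *CRY1* and *nfil3-6*. *BHLHE40* was higher in the first than in the second, and *nfil3-6* was highest in the third. The library ratios were 0.02 for *PER2*, 0.03 for *CRY1*, 0.30 for *BHLHE40* and 0.01 for *nfil3-6*. Other clock genes had the ratio of the neuron lists: *PER3* (-2.04) at 1.21, *NR1D2* (-1.45) at 0.88 and *PER1* (-1.79, ENSDARG00000012499) at 0.86. Of the 28 lower clock genes, 10 reached a ratio of 0.84 and 4 were below 0. The rises were *NFIL3* (2.33), *TIMELESS* (1.65), which also acts at replication forks, and *aanat2* (0.79), which makes melatonin and lost its call under 5 alternatives. The study's methods for RNA describe keeping fish in the dark overnight before eyes were harvested. The time of day at which retinas were taken is not given in the sources used here, and a difference between the groups in that time was not tested.

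**Figure D5:**
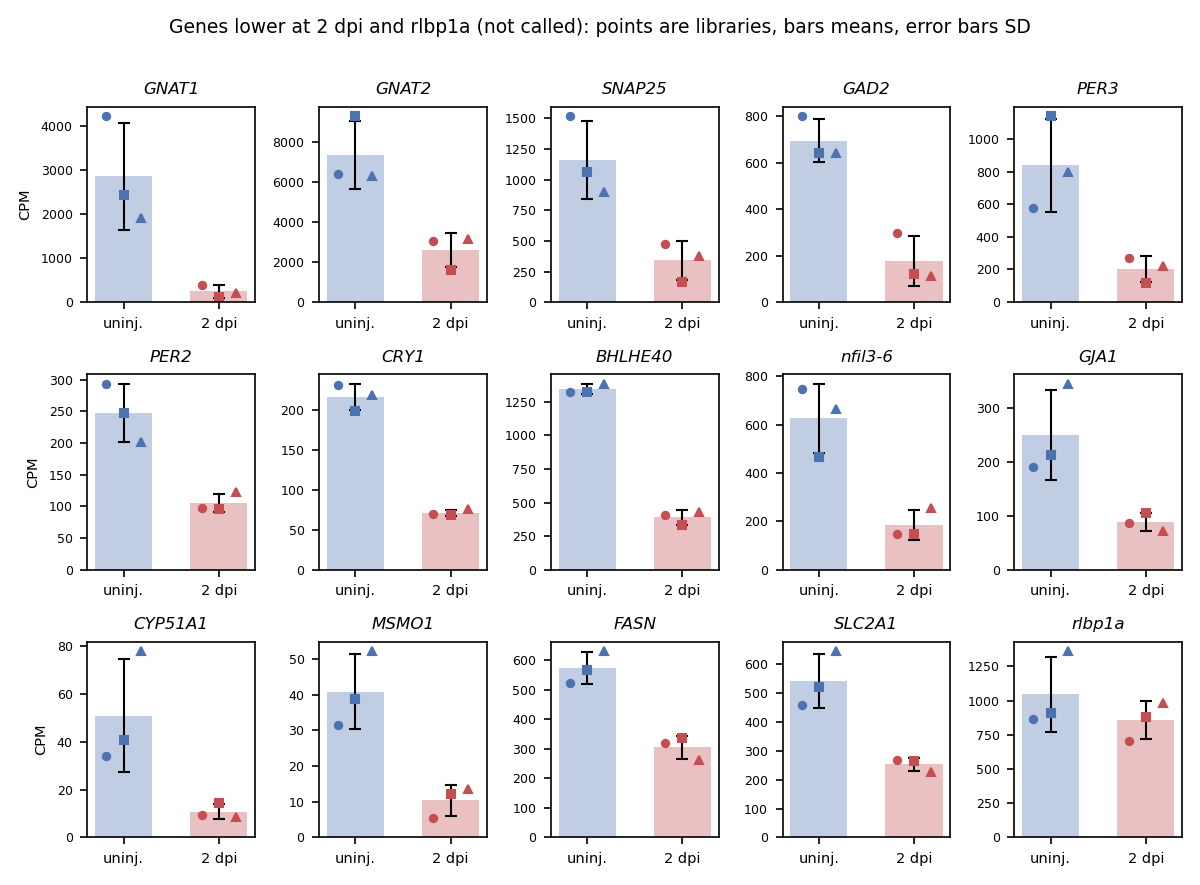
Level (CPM, linear axes from 0) of 14 genes called lower at 2 dpi and of *rlbp1a*, which was not called. Points are the 3 libraries of a group, bars the mean and error bars the SD. In *GNAT1*, *SNAP25* and *PER3* the second 2 dpi library (square) is the lowest, at 117 CPM for *PER3*, whereas *CRY1* gives 68.21 to 75.84 CPM in the 3 libraries.

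Nuclear receptor genes, which transduce thyroid hormone, retinoic acid and steroid signals, were lower in 35 of 76 cases (46.1%) and higher in 5. The thyroid hormone receptors *THRA* (-2.61, ENSDARG00000000151) and *THRB* (-1.78) fell. *THRB*, at 301.5, 902.1 and 523.4 CPM and then 221.4, 114.8 and 166 CPM, is also needed by red cones and had a library ratio of 0.95, against 0.39 for *THRA*. The progesterone receptor gene *PGR* was at 0 CPM uninjured and at 15.34, 25.33 and 14.73 CPM at 2 dpi, and the estrogen receptor gene *ESR2* (ENSDARG00000016454) rose by 3.0.

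Retinoid genes were near the background, with 9 of 51 higher and 11 lower. *CYP27C1*, which converts vitamin A1 to A2, rose from 0.81, 3.0 and 2.09 CPM to 95.16, 108.4 and 135.6 CPM (log2 fold change 5.85 ± 0.46), and *CRABP2* (5.64, ENSDARG00000073978) and the retinol receptor *STRA6* (2.81) rose as well. *STRA6* is also a marker of the pigment epithelium. That list, with *STRA6* in it, summed to 59.74, 74.05 and 66.09 CPM uninjured and 508.3, 188.7 and 117.5 CPM at 2 dpi. *STRA6* alone gave 93.94, 101.6 and 89.86 CPM of the 2 dpi sums. Another member, *RPE65* (ENSDARG00000007480), was at 18.55, 25.41 and 27.32 CPM uninjured and 158.9, 36.21 and 12.09 CPM at 2 dpi. The part of pigment epithelium in the rise of *STRA6* was not tested. The interphotoreceptor binding protein *rbp3* fell by 2.49.

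For neurotransmitter, purinergic and peptide receptors 60 of 137 were lower (43.8%) and 1 was higher, with a median of -1.87 and a median library ratio of 0.99. *gabrb1* (-2.98) and *GRIN2B* (-2.65, ENSDARG00000030376), subunits of the GABA-A and NMDA receptors, had ratios of 2.08 and 0.82, and the single rise was the kainate receptor subunit *GRIK4* (1.15). Of 72 ion, water and pH genes 32 were lower (44.4%) and 10 higher. The neuronal chloride exporter *slc12a5a* (-3.04) and the carbonic anhydrase *CA7* (-2.78) fell with ratios of 1.61 and 2.26. Against this, the potassium-chloride cotransporter *SLC12A4*, found in most cells, rose from 45.09, 41.01 and 70.57 CPM to 325.8, 354.5 and 325.9 CPM (2.68 ± 0.24), and the bicarbonate transporter *slc4a7* (3.97) and the potassium channel *KCNJ13* (2.83) rose too.

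Of 67 amino acid and glutamate transport genes 16 were higher and 22 lower (background 22.3% and 19.8%). The asparagine synthetase *ASNS* rose by 2.29, from 8.82, 9.90 and 13.85 CPM to 38.71, 63.24 and 57.22 CPM. The glutamate transporter *slc1a8b* fell by 2.22 with a library ratio of 1.60.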

How the data were processed

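RNA from sorted GFP+ MG was sequenced as polyA libraries. The deposited table holds gene counts that the authors made from their reads. The submitters' processing notes name cutadapt 2.3, FastQC 0.11.8, STAR 2.7.8a, RSEM 1.3.3 and DESeq2 and the builds GRCh38 and GRCz11. The strand setting is not given in the sources used here, so overlapping antisense genes cannot be told apart. Of 23707 gene IDs, 93.42% had a symbol and 3304 share theirs with another ID.

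Counts were filtered with filterByExpr, scaled by TMM and fitted in edgeR 4.0.16 (R 4.3.3) with 3 group means over 9 libraries, with Benjamini-Hochberg adjustment. SE is the log2 fold change over the root of F. The floor was 3 counts per library. The library ratio used a pseudocount of 0.1 CPM. On simulated counts for this comparison (19555 genes), 11 of 67 genes changed 2-fold, 44 of 67 changed 4-fold and 52 of 66 changed 8-fold were called, with 2 of 19355 unchanged genes. The simulation held a far smaller share of changed genes than the 42.1% called in the data, so these rates do not carry over to this comparison. The shared replicate numbers gave no pairing.

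The libraries, gene lists and tests were chosen with earlier results of these data known. Genes were named by rule: largest called changes at a mean of at least 20 CPM, largest changes in CPM, and in each list up to 4 called genes in each direction at a mean of at least 5 CPM plus genes whose role defines the list. Named outside that rule, after their values were seen, were *ACACA*, *AIF1L*, *CCT5*, *CDH2*, *egr1*, *FASN*, *FOXN4*, *HADHA*, *MSN*, *NR1D2*, *NTRK2*, *RAN*, *TET2*, *tet3*, *TGFB3*, *THRB*, *b2m*, *c1qa*, *c7a*, *il11a*, *il1b*, *irf9*, *isg15*, *krt8*, *nfil3-6*, *ptprc*, *srebf2*, *SREBF1*, *ABCG1* and *tyrobp*. Some genes are not reported here. Alternatives tried were 4 other scalings, DESeq2 1.42.0, no filter, a fit of the 6 Wt libraries alone, the replicate block, a higher or no fold limit, and dropping every Wt library in turn.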

Additional observations from a re-analysis of the deposited data

How the results depend on the processing

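The count of genes called with injury in Wt MG, 8621, was between 6919 and 9596 under the other scalings, tests, filters and fold thresholds, and between 7040 and 8469 when each Wt library was left out in turn. With the replicate block, the count of genes called with injury in Wt MG was 8185. In a check of pairing, same-numbered libraries gave correlations of 0.007, -0.033 and -0.019, and differently numbered ones between -0.03 and 0.05. The numbers thus did not pair the libraries. These are not correlations of the levels themselves, which lay between 0.84 and 0.905 between the groups. The share of calls that were higher lay between 49.5% with upper-quartile scaling and 57.0% with library size only.

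Of 243 genes followed across the alternatives, 227 kept their call under every one, 16 did not and 0 reversed. *TGFB3* lost its call under 8 of 14 alternatives, *DDIT3* under 7 and *aanat2* under 5. *SQLE* was -1.23 without the third uninjured library and -2.07 without the third 2 dpi library. The cause was not tested.

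Counts of several lists moved by more than 1.5 times when 1 library was left out, most often the first uninjured or the second 2 dpi library. Growth factor genes called lower numbered 17 with all libraries, 9 without either of these or without the third 2 dpi library, and 11 without the third uninjured one. TGF-beta, BMP and Id genes called higher numbered 11, and between 6 and 14 without 1 library. Those called lower numbered 11, and between 6 and 12. Notch genes called lower numbered 7, and were 3 without the second uninjured and 4 without the second 2 dpi library. Wnt and Hedgehog genes called lower numbered 8, and were 4 without the first or the third uninjured library and 5 with the replicate block. Cholesterol genes called higher numbered 8, and were 5 without the first uninjured and 4 without the second 2 dpi library. Cytoskeleton genes called lower numbered 9, and were 4 and 3. Immediate early genes called higher numbered 7, and 11 without the first 2 dpi library. Genes not called are not shown to be unchanged at 3 libraries a group.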

Other observations

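Single genes of the lens, of the fibroblast and scleral and of the endothelium and mural marker lists also changed. Which cells these transcripts came from was not tested. The lens crystallin gene *CRYBB2* went from 0, 0.880 and 0.255 CPM to 63.15, 116.6 and 96.98 CPM (log2 fold change 8.02 ± 0.80, adjusted p = 1.8e-05). Of 15 lens genes tested 4 were higher and 1 lower, against a background of 22.3% and 19.8%. *CRYBB2* supplied most of the summed lens list at 2 dpi, which was 81.37 to 140 CPM. *KERA*, the corneal proteoglycan keratocan, fell from 458.8, 299 and 182.9 CPM to a mean of 61.85 CPM (-2.34 ± 0.29). Of 23 endothelium and mural genes 8 were higher and 3 lower, and the higher count was 3 without the first uninjured or the second 2 dpi library and 5 without the second uninjured or the first 2 dpi library. The tight junction gene *CLDN5* rose at both of its entries, by 4.72 (ENSDARG00000043716) and 4.32 (ENSDARG00000014059). The pericyte gene *rgs5b* rose by 4.68, from 1.99, 2.17 and 5.57 CPM to 25.08, 84.64 and 141.8 CPM. The *RGS5* entry (ENSDARG00000002644) went the other way and fell by 1.68, from a mean of 155.9 to 48.6 CPM. The VEGF receptor gene *KDR* rose by 1.14, a call lost when any of 3 libraries was left out. The endothelial cadherin *cdh5* fell by 1.93, from 31.78, 28.78 and 29.52 CPM to 9.93, 6.85 and 6.91 CPM.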
